A study of Mus musculus with 4 samples.

Results

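Meis1 and Meis2 encode the transcription factors whose binding was mapped here, and the question asked of the peak lists was where Meis itself was bound at and around its own 2 genes. All peaks whose summit fell in the stretch from 18.5 to 19.4 Mb of chromosome 11 (Meis1) or from 115.2 to 116.4 Mb of chromosome 2 (Meis2), in mouse build mm9, were taken, which gave 69 of the 21338 forelimb (FL) peaks and 60 of the 16987 hindlimb (HL) peaks. The rule used position only, and no peak in either stretch was left out. The Meis1 locus held 30 FL and 26 HL peaks, and the Meis2 locus held 39 FL and 34 HL peaks.

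Chromatin came from wild-type C57BL/6 limb buds at E10.5, at about 36 somites, from about 500 FLs and 500 HLs pooled per limb. Each limb gave 1 immunoprecipitated library and 1 input library, so each value below rests on 1 library, no replicate spread is known, and no difference between FL and HL could be tested. Because the immunoprecipitation mixed an antibody against Meis1 in all its isoforms with one that binds Meis1a as well as the a and c forms of Meis2, binding by Meis1 and by Meis2 protein cannot be told apart. Whole buds were used, so mesenchyme and ectoderm, and proximal and distal cells, were averaged.

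Meis proteins are homeodomain factors of the TALE class, which carry an insertion of amino acids in the homeodomain and bind DNA together with Pbx and Hox partners. In the limb they are known as markers of the proximal bud, and both genes are active from the earliest stages of limb formation. Transcription factors of this kind often bind at their own promoters and at distant elements in the gene-poor stretches that surround them. How gene-poor the surroundings of Meis1 and Meis2 are was not measured here, beyond the distances between starts given below.

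Both genes are transcribed from the minus strand, so lower coordinates lie inside the gene and then beyond its 3′ end. The start positions used, inferred from distances that the study lists between peaks and genes, were chr11:18918717 for Meis1 and chr2:115890783 for Meis2. The RefSeq transcripts taken as models (GRCm38.p6) span 138.5 kb in 12 exons for Meis1 and 203.4 kb in 13 exons for Meis2, and these lengths were laid off from the mm9 starts. Only genes with a peak assigned in the lists of the study could be placed, so nearer genes may be missed. Among those placed the neighbours were distant. Spred2, an inhibitor of Ras signalling, started 906 kb upstream of Meis1, and Etaa1, an activator of the ATR checkpoint kinase, 1065 kb on the other side. Gm16140, annotated as antisense to Meis1, started 9.59 kb inside Meis1. BC052040, on the plus strand and so read toward Meis2, was the nearest of these beyond the 3′ end of Meis2. Its start lay 483 kb from that of Meis2, while Tmco5 and Spred1, a relative of Spred2, started 814 and 1056 kb upstream. How far BC052040 reaches toward Meis2 was not looked up.

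The promoter sequences are shown because a peak lay at or close to both starts in both limbs. These are the 250 bases before the start of the RefSeq transcript, read 5′ to 3′ on the minus strand of GRCm38.p6, at chr11:19018970-19019219 and chr2:116064620-116064869. No capitals are used, since no motif was found in them.
Meis1 promoter: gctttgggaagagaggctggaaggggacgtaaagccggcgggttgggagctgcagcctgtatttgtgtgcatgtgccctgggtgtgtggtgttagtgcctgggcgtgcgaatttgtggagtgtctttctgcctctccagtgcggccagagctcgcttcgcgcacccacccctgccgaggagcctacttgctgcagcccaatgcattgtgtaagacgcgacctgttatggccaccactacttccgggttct
Meis2 promoter: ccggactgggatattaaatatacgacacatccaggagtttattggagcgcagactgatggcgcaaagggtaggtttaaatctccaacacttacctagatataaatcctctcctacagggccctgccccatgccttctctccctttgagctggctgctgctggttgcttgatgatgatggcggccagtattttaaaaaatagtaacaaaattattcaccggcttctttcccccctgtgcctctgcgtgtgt
The Meis1 promoter had a GC content of 59.6% with 13 CG dinucleotides, and the Meis2 promoter 47.6% with 7, against medians of 52.4% and 6 over 32851 RefSeq promoters. Exact matches were sought on both strands for 7 motifs: the Meis hexamer TGACAG (in 15.9% of all promoters), the Pbx-Hox octamers TGATTTAT (0.837%), TGATTGAT (0.670%) and TGATTAAT (0.633%), the Pbx-Meis decamer, which ends in the Meis hexamer (0.198%), the T-box core GGTGTGA (3.33%) and the group 13 Hox core TCGTAAA (0.478%). None of these letters occurred in either 250-base window. By distance, the Meis1 summits, 70 and 82 bp into the gene, fell outside that window. So did the main Meis2 FL summit, 253 bp upstream, while the main HL one, 230 bp upstream, fell just inside. The lack of a motif here therefore says little about the bound sequence. The genome of build mm9 was not used here, so the sequences under the peaks were not read. RefSeq gives Meis2 starts that spread over 2.83 kb, so the promoter window and the Meis2 peaks cannot be aligned base by base.

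Peaks were dense at both loci. The Meis1 locus held 33.3 FL and 28.9 HL peaks per Mb and the Meis2 locus 32.5 and 28.3, against 8.11 FL and 6.46 HL peaks per Mb over the whole genome, ratios of 4.11, 4.47, 4.01 and 4.39. The chromosomes themselves were richer than the genome, and against their own chromosome the ratios were 2.59 in FL and 2.48 in HL for Meis1, and 3.39 and 3.31 for Meis2. Counting only peaks with a q of at most 0.05, as the authors' peak caller gave it, the ratios to the genome were 7.07 in FL and 15.3 in HL for Meis1, and 8.24 and 8.91 for Meis2. Peaks with several summits made up 8 of 69 in FL, where 6.14% of all peaks had several, and 8 of 60 in HL, where 4.15% did. Most peaks were weak. The median fold enrichment over input was 3.07 in FL and 3.26 in HL, against 2.78 in both whole lists.

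Of the 69 FL peaks, 23 passed the q threshold of 0.05, 33.3% (95% Wilson interval 23.4 to 45.1), where 17.4% of all FL peaks passed it. In HL 16 of 60 did so, 26.7% (17.1 to 39.0), where the whole list had 10.1%. By locus these were 9 FL and 9 HL peaks at Meis1, and 14 FL and 7 HL peaks at Meis2. The intervals cover counting error only, and neighbouring peaks of a locus are not independent.

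**Figure D1:**
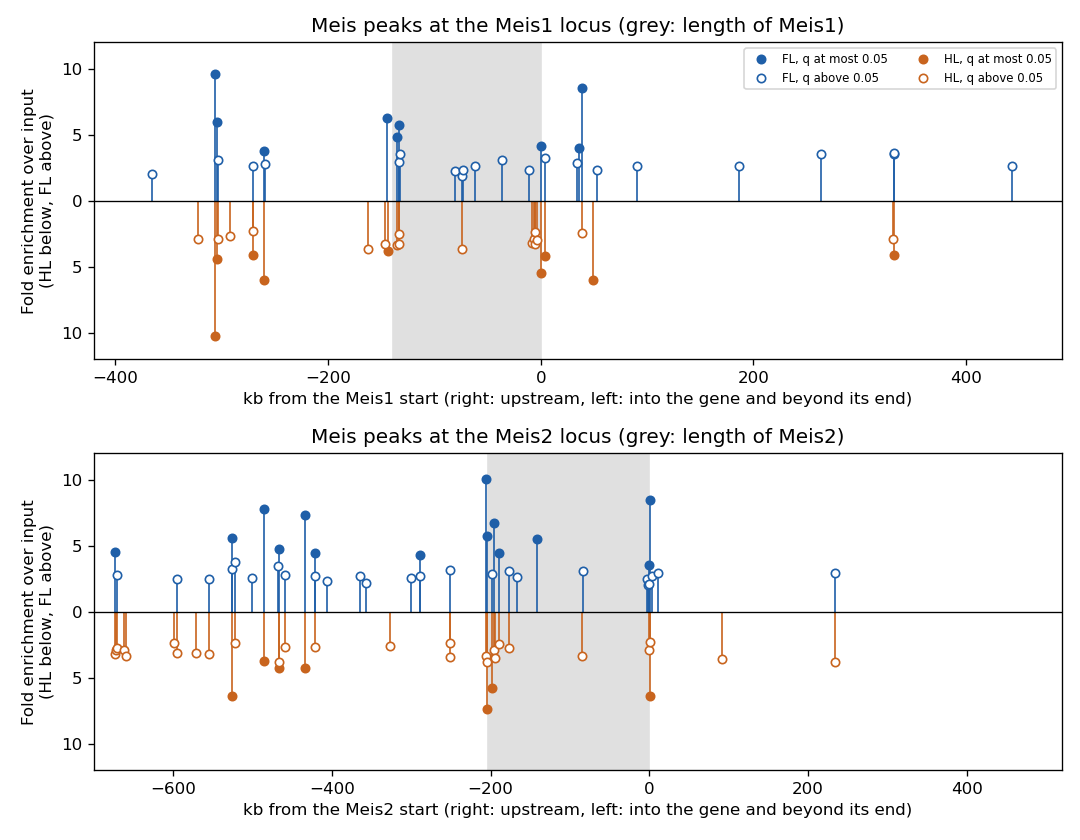
Fold enrichment over input (vertical axis, FL upward in blue, HL downward in orange) of each peak against its distance in kb from the start of Meis1 (top) or Meis2 (bottom), with upstream to the right and the gene in grey; filled points had a q of at most 0.05. The highest Meis1 peak stood 306 kb from the start in both limbs, and the upstream side of Meis2 held 2 called peaks per limb.

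At the Meis1 start, 1 peak was found in each limb, with summits 12 bp apart. The enrichment was 4.11-fold in FL (chr11:18918565-18918784, q = 0.00183) and 5.45-fold in HL (chr11:18918571-18918702, q = 1.56e-06), with summits 70 and 82 bp into the gene, in the first exon of the RefSeq model by distance. A companion lay 3.80 kb upstream, with 3.27 in FL (q = 0.263) and 4.20 in HL (q = 0.0158). Both start sites were thus higher in HL, by ratios of 1.33 and 1.29. In HL alone, 5 more peaks lay between 3.84 and 7.99 kb into the gene, over the stretch of short early exons, with folds from 2.39 to 3.27 and q values from 0.999 to 1.

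At the Meis2 start the peak was higher than at Meis1 and broader. The FL peak (chr2:115890874-115891446), which had 2 summits, reached 8.50 (q = 3.85e-14) and ranked 300 of 21338 by fold, with its main summit 253 bp upstream of the start. In HL this stretch was covered by 2 peaks, chr2:115890899-115891150 with 6.36 (q = 2.57e-08, rank 347 of 16987) and chr2:115891218-115891475 with 2.30 (q = 1). The main summits of the limbs were 23 bp apart. A second site 1.04 kb into the gene had 3.52 in FL (q = 0.0206) and 2.89 in HL (q = 1). The other 4 FL peaks within 5 kb of the Meis2 start, at 2.49, 1.93 and 0.297 kb inside and 3.01 kb upstream, had folds between 2.03 and 2.72 and overlapped no HL peak.

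The highest Meis1 site in both limbs lay far from the gene, 306 kb from its start and 167 kb past its 3′ end. Enrichment reached 9.61-fold in FL (chr11:18612349-18613025, q = 4.91e-19, rank 198) and 10.3-fold in HL (chr11:18612500-18613223, q = 7.70e-19, rank 61). They held 2 and 3 summits, and the main ones were 5 bp apart. Beside it, 304 kb from the start, stood a second site with 6.00 in FL (q = 1.15e-06) and 4.44 in HL (q = 0.00406), and then a weaker one with 3.07 and 2.88 (q = 0.737 and 1). The FL and HL folds of these 3 sites differed by ratios of 1.07 to 1.35.

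Between this group and the gene, a site 260 kb from the start had 3.75 in FL (q = 1.93e-05) and 6.02 in HL (q = 2.28e-06), and another at 271 kb had 2.65 in FL (q = 1) and 4.11 in HL (q = 0.0313). Both were higher in HL, 1.60 and 1.55 times. No peak of either limb had its summit between 259 and 163 kb from the start, a gap of 96.6 kb.

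Around the 3′ end of Meis1 the order of the limbs was mostly the other way. The site 5.46 kb past the end (chr11:18774398-18774879 in FL) had 6.29 in FL (q = 1.44e-07) and 3.80 in HL (q = 0.0475), with summits 3 bp apart. Inside the gene, 3.45 kb before the end, the folds were 4.85 (q = 0.000219) and 3.37 (q = 1). At 5.66 kb before the end they were 5.74 (q = 4.18e-06) and 2.51 (q = 1), a ratio of 2.29 in favour of FL. The weaker site between these, 5.03 kb before the end, had 2.95 in FL and 3.26 in HL (q = 1 and 0.802), so 3 of the 4 sites here were higher in FL.

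In the rest of Meis1 the peaks were low. Intron 7 of the model held 1 site found in both limbs, with 1.89 in FL (q = 1) and 3.68 in HL (q = 0.206), the Meis1 pair with the largest ratio in favour of HL, 1.95. Over the whole gene more than 5 kb from its start, none of the 8 HL peaks had a q of at most 0.05, where 10.1% of all HL peaks did. In FL 2 of 10 did, where 17.4% of all FL peaks did. Both were the sites near the 3′ end described above, so no peak in the rest of the gene passed in either limb.

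Upstream of Meis1 the 2 limbs had their strongest peaks at different places. In FL this was a site 38.9 kb upstream (chr11:18957421-18957709), with a fold of 8.54 (q = 8.26e-13, rank 290), where HL had a peak of 2.45 (q = 1). The ratio of 3.48 was the largest in favour of FL at either locus, at the 99.6th percentile of all 4813 overlapping pairs. In HL it was a site 49.5 kb upstream (chr11:18968149-18968320), with 6.02 (q = 2.28e-06, rank 419), where no FL peak was called; the nearest FL summit was 2.97 kb away with a fold of 2.35. The strongest FL and HL sites upstream were thus 10.7 kb apart. Of the 420 HL peaks with at least this fold in the whole list, 13, or 3.10%, overlapped no FL peak. A further FL peak 36.0 kb upstream, 3.97 (q = 0.0497), had no HL counterpart. Of the 3146 FL peaks with at least this fold in the whole list, 1002, or 31.8%, also overlapped no HL peak.

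**Figure D2:**
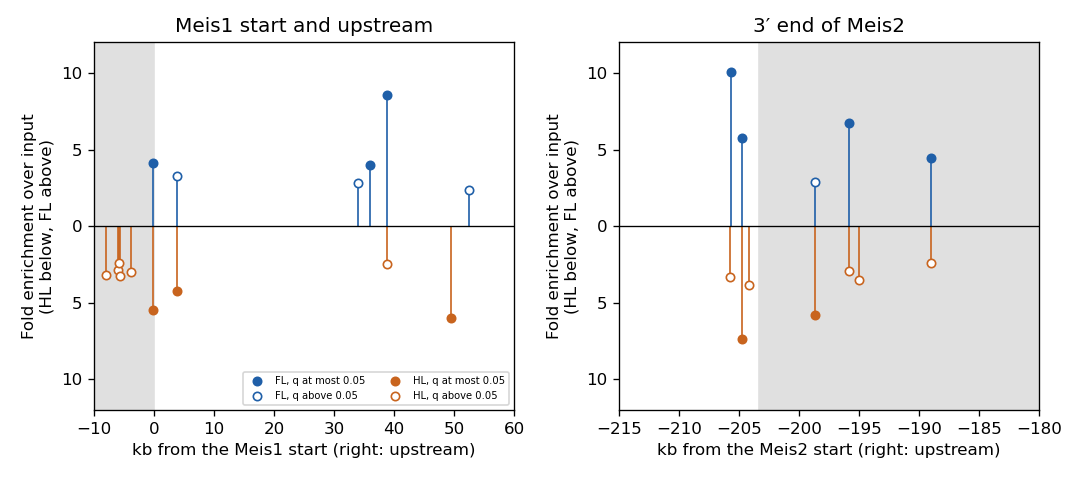
Fold enrichment over input (vertical axis, FL upward, HL downward) against distance in kb from the start, for the Meis1 start and the stretch upstream of it (left) and for the 3′ end of Meis2 (right); grey marks the gene and filled points had a q of at most 0.05. Upstream of Meis1 the tallest FL point, 8.54, and the tallest HL point, 6.02, stand at different sites, and at the end of Meis2 the tallest FL point, 10.1, and the tallest HL point, 7.37, stand 0.885 kb apart.

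Farther upstream of Meis1 the peaks were sparse, and those found in both limbs were limited to a site 332 kb away with 3.51 in FL (q = 0.0752) and 4.13 in HL (q = 0.0425). In all, the 476 kb upstream held 10 FL peaks, 2 of them with a q of at most 0.05, and 4 HL peaks, also with 2.

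The highest FL peak of the Meis2 locus was at the 3′ end of the gene, not at its start. This peak (chr2:115684974-115685561), 2.28 kb past the end of the model and 206 kb from the start, was enriched 10.1-fold (q = 7.98e-20, rank 159), where HL had 3.33 (q = 0.169). The RefSeq starts of Meis2 spread over 2.83 kb, and the model begins at the lowest. Whether this site and the next lie past the gene end or inside it is therefore not settled. The FL fold was 3.02 times that of HL, at the 99.1th percentile of all pairs. At the next site, 0.885 kb closer to the start (chr2:115685874-115686288 in FL), the order was reversed, with 5.78 in FL (q = 1.94e-10) and 7.37 in HL (q = 3.07e-12, rank 212), the highest HL fold of the Meis2 locus.

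At sites found in both limbs, the order of the limbs also varied over the last exons of the Meis2 model. A site 199 kb from the start had 2.86 in FL (q = 0.815) and 5.81 in HL (q = 2.68e-06), 2.03 times higher in HL and the only pair at either locus at least 2 times higher in that limb. A site 196 kb from the start, 2.85 kb from the main HL summit of the former, had 6.72 in FL (q = 1.33e-11) and 2.90 in HL (q = 0.195), 2.31 times higher in FL, with summits 2 bp apart. In intron 9, a site 189 kb from the start had 4.47 in FL (q = 0.00355) and 2.43 in HL (q = 1), with summits at the same base. Of these 5 sites found in both limbs, 3 were thus higher in FL and 2 in HL. HL alone had further peaks in this stretch, 204 and 195 kb from the start, with 3.82 (q = 0.103) and 3.53 (q = 0.340).

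Deeper in the gene, 142 kb from the start, FL had a peak of 5.52 (chr2:115749035-115749380, q = 1.79e-05) with no HL peak on it, and the nearest HL summit was 35.7 kb away. Of 1205 FL peaks with at least this fold in the whole list, 157 overlapped no HL peak. No summit of either limb was found between 83.5 and 2.49 kb from the start, a gap of 81.0 kb in the first part of the gene.

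Beyond the 3′ end of Meis2 lay the richest stretch of that locus, with 24 FL and 23 HL peaks in 487 kb, 9 and 5 of them with a q of at most 0.05. These counts include the sites just past the end of the model, which may lie inside the gene. Many of the rest lay nearer to the start of BC052040 than to that of Meis2: 22 FL and 20 HL peaks of the locus did, 7 and 4 of them with a q of at most 0.05. The highest of these in FL stood 1.96 kb upstream of the BC052040 start (chr2:115405367-115405679 in FL), with 7.80 in FL (q = 9.59e-13) and 3.72 in HL (q = 0.00458), a ratio of 2.10. Which gene such sites act on was not measured.

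Other sites in this stretch were found at similar heights. At 434 kb from the Meis2 start the folds were 7.33 in FL (q = 2.95e-14) and 4.26 in HL (q = 0.00263), and at 527 kb 5.57 in FL (q = 1.76e-07) and 6.36 in HL (q = 2.57e-08). At 467 kb an FL peak of 4.75 (q = 0.000639) overlapped 2 HL peaks. The higher had 4.30 (q = 0.00635), with its summit 285 bp from that of FL. The other, with its summit nearer that of FL, had 3.85 (q = 0.129). An FL peak 289 kb from the start, 4.30 (q = 0.0206), overlapped no HL peak, and the nearest HL summit lay 37.4 kb away. Of the 2608 FL peaks with at least this fold in the whole list, 726, or 27.8%, also overlapped no HL peak.

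Upstream of Meis2 few peaks were called. In 504 kb FL had peaks 11.1 and 233 kb upstream, with folds of 2.95 and 2.95, and HL had peaks 91.3 and 233 kb upstream, with 3.57 and 3.80. None of the 4 had a q of at most 0.05 (0.386 to 1), and no peak followed over the last 276 kb of the stretch. Peaks per 100 kb upstream were 0.397 in both limbs at Meis2, and 2.10 in FL and 0.840 in HL at Meis1. At Meis2 the values beyond the 3′ end of the model were 4.92 and 4.72.

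**Figure D3:**
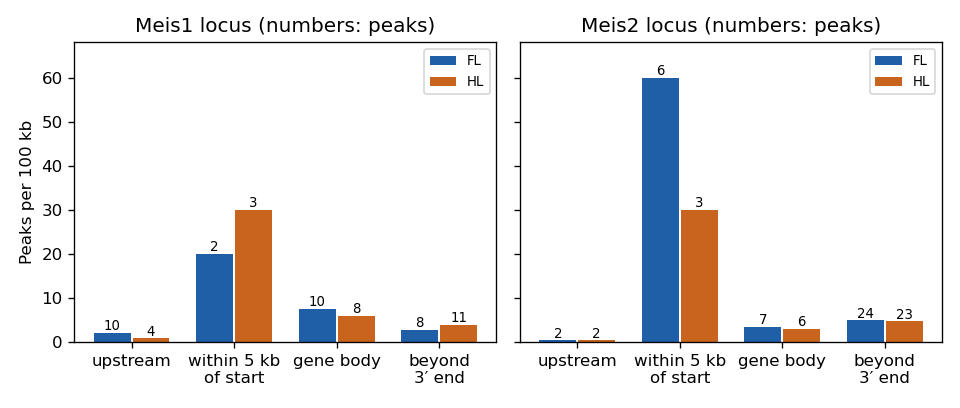
Peaks per 100 kb (vertical axis, from 0) upstream of the start, within 5 kb of it, in the rest of the gene and beyond the 3′ end, for FL (blue) and HL (orange), with the number of peaks above each bar. Both loci were densest within 5 kb of the start, where 2 to 6 peaks were counted in 10 kb, and Meis2 had 2 peaks per limb upstream against 24 and 23 beyond the end of its model.

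FL and HL peaks coincided more often at these genes than across the lists. At least 1 bp was shared with a peak of the other limb by 35 of 69 FL peaks, 50.7% (39.2 to 62.2), against 22.6% of all FL peaks. In HL it was 37 of 60, 61.7% (49.0 to 72.9), against 29.0%. The lists used here extend to weak peaks, so these whole-list shares are not the overlap that the study reports. Strong peaks overlap more often in general: among those with a q of at most 0.05 the shares were 20 of 23 in FL, against 67.0% of all such FL peaks, and 15 of 16 in HL, against 89.3%. The exceptions were the 3 FL peaks and the 1 HL peak described above.

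Over the 35 overlapping pairs the median log2 ratio of FL to HL fold was 0.09, with a range from -1.02 to 1.80, against 0.17 for all 4813 pairs. At Meis1 it was -0.12 over 14 pairs, with 6 higher in FL and 8 in HL, and at Meis2 0.17 over 21 pairs, with 14 and 7. A fold at least 2 times higher in FL was found in 5 of the 35 pairs, where 7.40% of all pairs had one, and at least 2 times higher in HL in 1, where 1.91% had one. The other 29 pairs differed by less. The summits of a pair lay a median of 29 bp apart, against 30 bp in all pairs, and 23 of the 35 were at most 50 bp apart (65.7%, against 67.2% of all pairs).

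**Figure D4:**
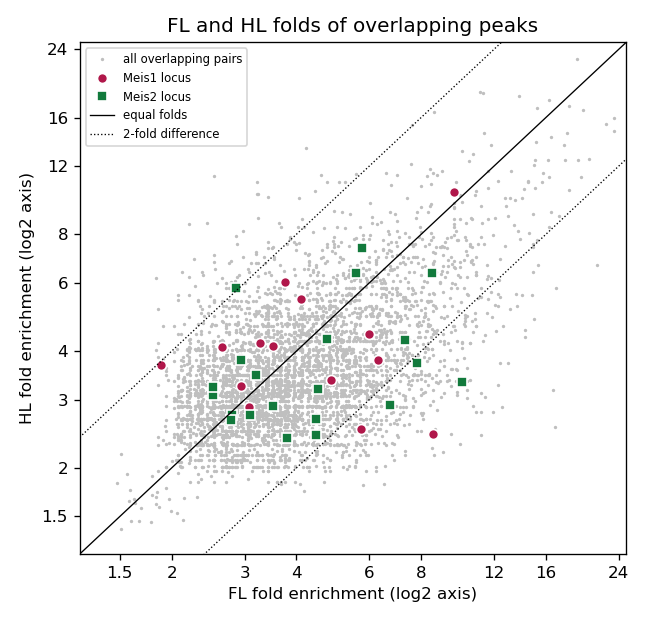
FL fold (horizontal, log2 axis) against HL fold (vertical, log2 axis) of the 35 overlapping pairs at Meis1 (red circles) and Meis2 (green squares), over all 4813 pairs in grey; the solid line marks equal folds and the dotted lines a 2-fold difference. Of the coloured points, 5 lie beyond the lower dotted line (higher in FL) and 1 beyond the upper one.

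Some of these sites were also bound by other limb factors in data the study brought together. Regions where published limb-bud peaks of Tbx5, the T-box factor of the forelimb, and Hoxc10, a Hox factor of the hindlimb, coincide overlapped 5 of 69 FL and 5 of 60 HL peaks, where 2.58% and 2.61% of the whole lists were overlapped. In FL these were 3 of the Meis1 sites beyond the gene, with folds of 9.61, 6.00 and 3.75, and 2 of the Meis2 locus, the site beside the BC052040 start and the one 673 kb from the Meis2 start, with 4.51 in FL (q = 0.00199) and 3.20 in HL (q = 0.351). The 5 FL peaks all had a q of at most 0.05, and the share over all such FL peaks was not computed. No Tbx5-Hoxc10 region overlapped the peaks at the start or inside either gene. Regions the study lists for FL Meis with Hoxc10, which rest in part on these same FL peaks, overlapped 8 FL and 8 HL peaks. They included the site with 5.78 in FL near the 3′ end of Meis2. Over the whole lists such regions overlapped 889 of 21338 FL and 775 of 16987 HL peaks.

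Of 18 genes listed from the same TALE class, 12 could be placed in mm9, and Meis3 was not among them. Among the 12 placed, Meis1 and Meis2 had the highest peaks nearby. Within 100 kb of the start Meis1 had 13 FL and 10 HL peaks with highest folds of 8.54 and 6.02, and Meis2 8 and 5 peaks with 8.50 and 6.36. The highest value for the other 10 genes was 4.98 in FL, at Pbx3, and 5.58 in HL, at Pknox2, both of which encode partners or relatives of Meis. Pknox2 was close to Meis1 in number, with 12 FL and 11 HL peaks, and Irx1 had none. At least 1 peak with a q of at most 0.05 lay within 100 kb of 8 of the 12 genes in FL, where 47.2% of 2024 placed genes had one, and of 6 in HL, where 28.6% had one. Without Meis1 and Meis2 these were 6 and 4 of 10.

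The stretch within 100 kb of each start was also set against that of all 2024 placed genes, which leaves out the highest peaks of both loci, since these lay farther away. As many peaks as Meis1, or more, were found near 88 genes in FL and 144 in HL (Meis1 included), and for Meis2 near 289 and 476 genes. For peaks with a q of at most 0.05 these were 151 genes in FL and 56 in HL for Meis1, and 342 and 578 for Meis2. A highest FL fold of at least 8.50 was found near 143 genes, 7.07%, and a highest HL fold of at least 6.02 near 181, 8.94%. The placed genes are those with a Meis peak assigned in the lists of the study, so they are not a sample of all genes.

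The limits of the stretches were set by position, and peaks were also called outside them. The nearest FL peak below the Meis1 stretch (chr11:18486440-18486974) had a fold of 5.89 (q = 9.78e-06), while the first inside had 2.03 (q = 1). On the other side the last peak inside had 2.66 and the first outside 2.22, both with a q of 1. At Meis2 the nearest pair below the stretch (chr2:115152827-115153022 in FL) had 3.73 in FL (q = 0.0206) and 3.85 in HL (q = 0.0944), and the first pair inside had 4.51 and 3.20. Above it the last pair inside had 2.95 and 3.80. The next peaks lay 561 kb from the start in FL and 907 kb in HL. Their folds were 3.06 and 3.23, and neither had a q of at most 0.05.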

How the data were processed

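Peak lists of 1 FL and 1 HL ChIP library were used; the inputs carried no list and were not analysed here. The submitters' processing notes name CASAVA 1.8.2, cutadapt 1.3, BWA, SAMtools and MACS2, with build mm9. Peaks were called by the authors separately in FL and HL, with that limb's input as control and with several summits allowed per peak. The deposited fold is the ratio of ChIP signal to local background at the summit, and the −log10 of p and of q are deposited as the authors' peak caller wrote them. The deposited score of the authors is their −log10 p times a constant. Both lists extend to weak peaks, with caller p-values as high as 0.022 in FL and 0.0217 in HL. The study reports the read depth of each library. It was not used here, and how far it sets the number of peaks is unknown.

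Summits with the same start and end were merged into 1 peak, carrying the highest fold and the lowest q. Peaks sharing at least 1 bp formed a pair, and where an FL peak met several HL peaks the highest was taken. Genome length was taken as the sum over chromosomes of the last peak end. Starts in mm9 were inferred from the distances between peaks and genes that the study lists, to within 2 bp. Gene lengths and introns came from RefSeq on GRCm38.p6 by distance from the start, with no conversion between builds, and an intron was named only for summits at least 2 kb from any exon of the model. Promoters were matched by symbol, 2 of 2, in a RefSeq table. Peaks named are those within 5 kb of a start, the 5 highest of each limb and locus, those with a q of at most 0.05 without a peak of the other limb, and the pairs with the largest ratios; further sites named were added after their values were seen. The members, lists and tests were chosen with earlier results of these data known. Shares carry 95% Wilson intervals. Overlap and start finding were tested on simulated data. Python 3.11.15, pandas 2.3.3, numpy 2.4.6 and matplotlib 3.10.9 were used. Alternatives covered the q, p and fold minimum, the overlap rule, the window around the start, the reference for density and the centring of ratios.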

Additional observations from a re-analysis of the deposited data

How the results depend on the processing

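Each limb had 1 library, so nothing could be left out, and no test between limbs was run. No paired analysis was possible because each limb had 1 library. Counts moved with the threshold. For Meis1 FL (30 peaks) they were 9 at a q of at most 0.05, 17 at a p of at most 0.0005, 16 at a fold of at least 3 and 13 within 100 kb of the start. For Meis1 HL (26) they were 9, 18, 16 and 10, for Meis2 FL (39) 14, 22, 20 and 8, and for Meis2 HL (34) 7, 22, 20 and 5. Requiring an overlap of 50% of both peaks lowered the overlapping share to 36.2% in FL and 41.7% in HL, and a q of at most 0.05 raised it to 87.0% and 93.8%. Density ratios with that q were 7.07 and 15.3 at Meis1 (FL, HL) and 8.24 and 8.91 at Meis2, and against the chromosome alone 2.59 and 2.48 at Meis1. With that q the ratios rose because a larger share of peaks passed at the loci than in the whole lists: 30.0% at Meis1 and 35.9% at Meis2 against 17.4% in FL, and 34.6% and 20.6% against 10.1% in HL. The other 21 values stayed within set limits (a count by less than 1.5 times, a median by less than the spread of its pairs), among them all those for the median log2 FL to HL ratio. The pairs ranged from -1.02 to 1.80, so the limit for a median was wide and could hardly be passed. Centring on all pairs took the median from -0.12 to -0.29 at Meis1 and from 0.17 to 0.00 at Meis2. The lists keep no depth, so a missing peak says only that none was called.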
